A study of Caenorhabditis elegans with 2 samples.

Results

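The binding of LSY-2, a transcription factor with zinc fingers, was mapped in embryos of the nematode Caenorhabditis elegans by chromatin immunoprecipitation and sequencing (ChIP-seq). The regions described here are weaker binding peaks that missed the authors' reproducibility threshold but ranked among the stronger peaks of both replicates. There were 897 of them among the 30000 regions of the authors' pooled list. A weaker peak had to overlap no peak of the list that passed the authors' irreproducible discovery rate (IDR) threshold, to rank 6000 or better by the authors' signal in the pooled list, and to overlap by at least 1 bp one of the 6000 highest-signal peaks of each replicate's own list. Both replicates came from whole embryos of mixed stage and both sexes of strain OP367, which carries the unc-119 allele tm4063 and the integrated transgene wgIs367 for eGFP-tagged LSY-2. They formed 1 group of 2 biological replicates, with no untagged strain or input library analysed here, and the transgene's promoter and copy number were not given in the sources used here.

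Transcription factor ChIP-seq records where a protein is found on chromatin across all the cells of a sample, so a site used in few cells of an embryo and a site occupied seldom in many cells give the same low signal. LSY-2 is known from the ASE taste neurons, a pair whose left and right cells differ, where it acts through the microRNA gene lsy-6. The IDR method keeps peaks whose rank is reproduced between replicates, and peaks below its threshold can be weak binding or background.

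The 6 windows below reach 50 bp to each side of the summit of a weaker peak, on the plus strand of WBcel235, the assembly also called ce11. They show the words ACGCAG and CGCAGA, which overlap in the 7 bases ACGCAGA. Both come from words picked for being more frequent at weaker peaks than at the other peaks of ranks 2569 to 6000. Capitals mark either word on either strand. Windows that overlap an annotated exon are not printed, which leaves out ets-6 and nhr-228, whose windows hold the 7 bases. The peaks considered were the 20 weaker peaks of highest signal and those named from gene lists, 52 in all, of which 26 were eligible for printing. The 4 windows with a word are all those among the 26, and the other pair, with neither word, are the highest-ranked of the rest, a choice made after the sequences were seen. Each is labelled with the nearest protein-coding gene, or for srh-2 with the listed gene whose promoter window it lies in.

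tmed-12, rank 2569, chrX:156766-156866: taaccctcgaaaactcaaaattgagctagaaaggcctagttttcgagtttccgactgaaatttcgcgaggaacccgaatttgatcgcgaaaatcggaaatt
F57G12.1, rank 2571, chrX:12183225-12183325: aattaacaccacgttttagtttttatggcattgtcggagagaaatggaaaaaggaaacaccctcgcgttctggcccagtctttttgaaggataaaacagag
fbxa-220, rank 2575, chrIII:11481456-11481556: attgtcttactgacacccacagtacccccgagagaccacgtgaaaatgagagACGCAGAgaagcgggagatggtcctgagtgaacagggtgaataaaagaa
ceh-93, rank 2640, chrX:388898-388998: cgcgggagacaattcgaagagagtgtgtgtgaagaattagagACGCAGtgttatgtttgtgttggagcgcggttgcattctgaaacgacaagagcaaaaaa
pat-4, rank 3117, chrIII:95088-95188: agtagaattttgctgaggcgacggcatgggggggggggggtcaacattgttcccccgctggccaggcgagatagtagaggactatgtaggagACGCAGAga
srh-2, rank 3197, chrV:728035-728135: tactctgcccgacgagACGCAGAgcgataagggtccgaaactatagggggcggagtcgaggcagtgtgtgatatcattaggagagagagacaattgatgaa

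The weaker peaks were chosen by their signal and ranks, so these values describe the choice. The 2568 IDR peaks held the first 2568 ranks of the pooled list, and the weaker peaks began at rank 2569, with a signal of 33.4, and ended at rank 5990, with a signal of 17.5. Their median signal was 27.3, against 56.7 in the IDR peaks, 20.7 in the 2437 peaks of the same ranks that missed the rule and 9.40 in the 23768 peaks past rank 6000 that overlapped no IDR peak. The authors' −log10 q-value ran from 1.15 to 2.49 in the weaker peaks and from 2.32 to 2.79 in the IDR peaks. All 897 weaker peaks spanned 380 bp, each with its summit in the centre. In 40 cases a weaker peak overlapped another, so the 897 peaks made 857 separate regions, and such pairs share sequence and reads.

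Being found in both replicates became rarer with each step down the pooled list. Ranks 2569 to 6000 held 3432 peaks, of which 98 overlapped an IDR peak. When these ranks were divided into 4 equal parts, 62.6% (95% Wilson interval 59.2 to 65.8) of the peaks of the first part that overlapped no IDR peak met the rule, followed by 28.7% (25.7 to 31.8), 10.8% (8.83 to 13) and 6.08% (4.65 to 7.90). Of the peaks that missed the rule, 965 were among the 6000 highest of replicate 1 only, 952 of replicate 2 only, and 520 of neither. The numbers lost to each replicate alone were similar. The pooled list includes the reads of both replicates, so pooled and replicate ranks are not independent. The intervals here and below treat peaks or genes as units, cover counting error only, and do not measure the spread between replicates.

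**Figure D1:**
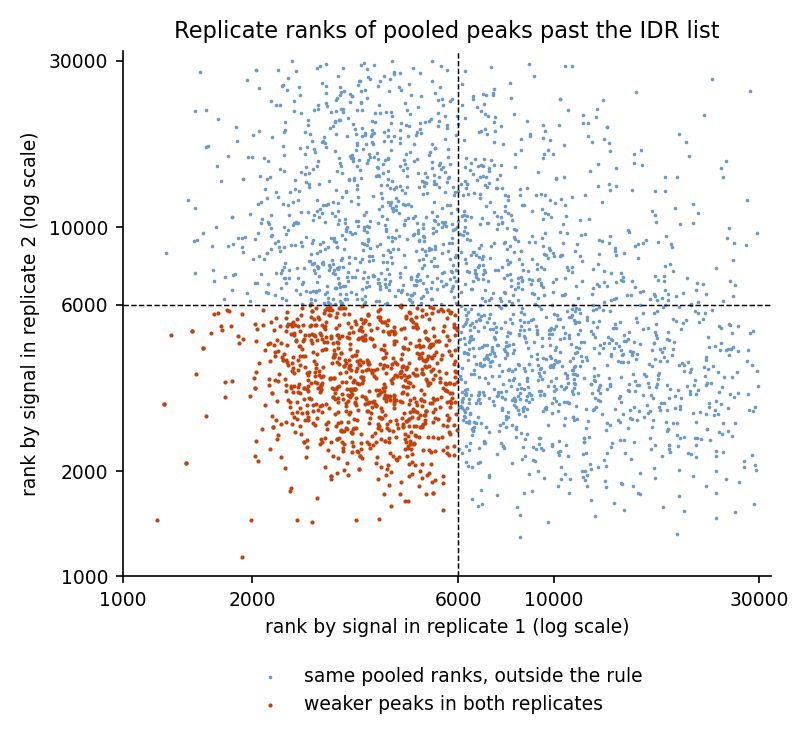
Rank by signal in replicate 1 (x axis) and in replicate 2 (y axis), both on log scales, for pooled peaks of ranks 2569 to 6000 that overlapped no IDR peak and overlapped a peak of both replicate lists. Dashed lines mark rank 6000, and the 897 weaker peaks fill the lower left corner by construction.

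The replicate ranks of the weaker peaks are likewise values that the rule used. The median rank was 3643 in replicate 1 and 3590 in replicate 2. The strongest weaker peak, 6318 bp downstream of the 5' end of tmed-12, ranked 3310 in replicate 1 and 2115 in replicate 2. The next, in an intron of pqn-41, ranked 4689 and 1961, while the peak in the intron of Y48C3A.5 ranked 1557 and 2872.

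At many weaker peaks a matched replicate summit lay more than 50 bp from the pooled summit. The summit matched in each replicate was that of its highest-ranked overlapping peak, which need not be the nearest. The rule used this same match, so a pooled peak could become a weaker peak by touching the edge of a higher replicate peak. Both replicate summits lay within 50 bp of the pooled summit at 37.5% (34.4 to 40.7) of weaker peaks, against 76.5% (74.8 to 78.1) of IDR peaks. Over the 4 successive parts of the rank range the share fell from 48.6% (44.4 to 52.9) to 28.2%, 14.4% and 7.84% (3.09 to 18.5). In the peaks of the same parts that missed the rule it went from 45.2% (39.7 to 50.7) to 38.7%, 27% and 20.8% (18.1 to 23.8). In the second, the third and the last part the weaker peaks thus had the lower share, though the intervals of the last pair overlap slightly. Because membership rested on the match from which the distance was taken, this difference describes the choice and draws no line between kinds of binding.

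The rank limit cut through a continuous series. The members just inside it were an intron peak nearest to fbxb-65 (rank 5945, signal 17.6, replicate ranks 5188 and 4614), a peak 2402 bp upstream of syx-16 (rank 5978, signal 17.6, replicate ranks 3357 and 3945) and an intron peak nearest to F58D5.9 (rank 5990, signal 17.5, replicate ranks 5242 and 5856). Just outside it, peaks that met the other conditions lay in an intron nearest to pqn-82 (rank 6039, signal 17.5), 7660 bp from the 5' end of ndg-4 (rank 6051, signal 17.4) and 82 bp upstream of csn-1 (rank 6091, signal 17.4).

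Promoters were the most frequent location of the weaker peaks, and introns the next. Of the 897 summits, 396 (44.1%, 40.9 to 47.4) lay in a promoter window, from 1000 bp upstream to 300 bp downstream of the 5' end of a protein-coding gene. A further 252 (28.1%, 25.3 to 31.1) lay in introns, 227 (25.3%, 22.6 to 28.3) between genes or in noncoding sequence, and 22 (2.45%, 1.63 to 3.69) in exons. The IDR peaks had 71.2% (69.4 to 72.9) in promoter windows and 12.1% (10.9 to 13.5) in introns. Peaks past rank 6000 had 28.1% (27.5 to 28.7) in promoter windows, 36.4% in introns and 10.1% in exons. The weaker peaks lay between these sets in their promoter, intron and exon shares, and none of these intervals overlapped.

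**Figure D2:**
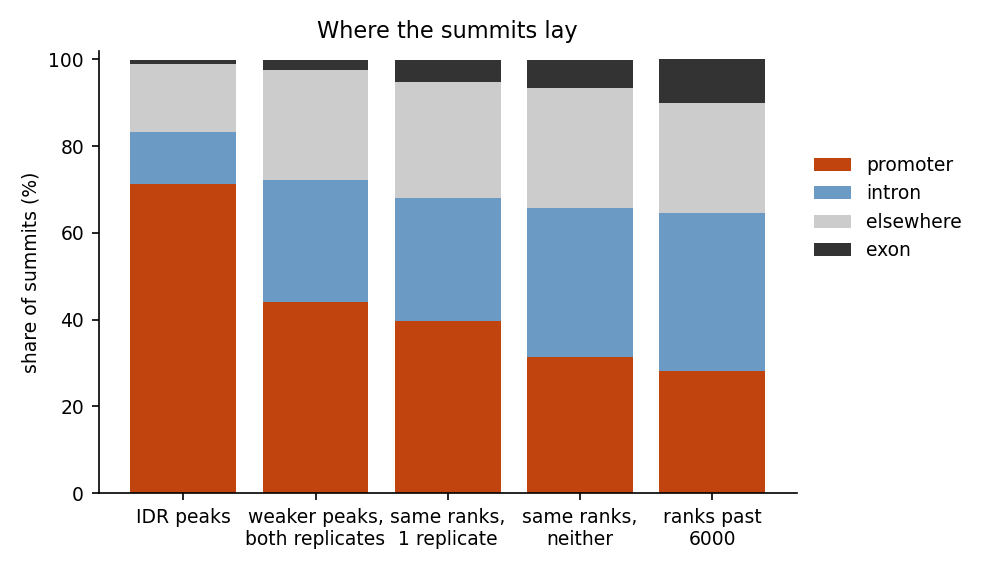
Share of summits (y axis, %) in promoter windows, introns, exons and elsewhere for 5 sets of pooled peaks (x axis). The promoter share was 71.2% in IDR peaks, 44.1% in weaker peaks and 28.1% past rank 6000.

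At matched ranks the promoter share did not separate weaker peaks from those that missed the rule. Over the whole range, the peaks of the same ranks that missed the rule had a promoter share of 37.9% (36 to 39.9), below that of the weaker peaks. Within the 4 parts of the rank range the shares were 47.9% (43.6 to 52.2) of weaker and 47.7% (42.2 to 53.3) of missed peaks, then 43.7% and 39.7%, then 34.4% and 36.5%, then 25.5% (15.5 to 38.9) and 34.0%. The intervals overlapped in each part, and the sign of the difference changed along the range.

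**Figure D3:**
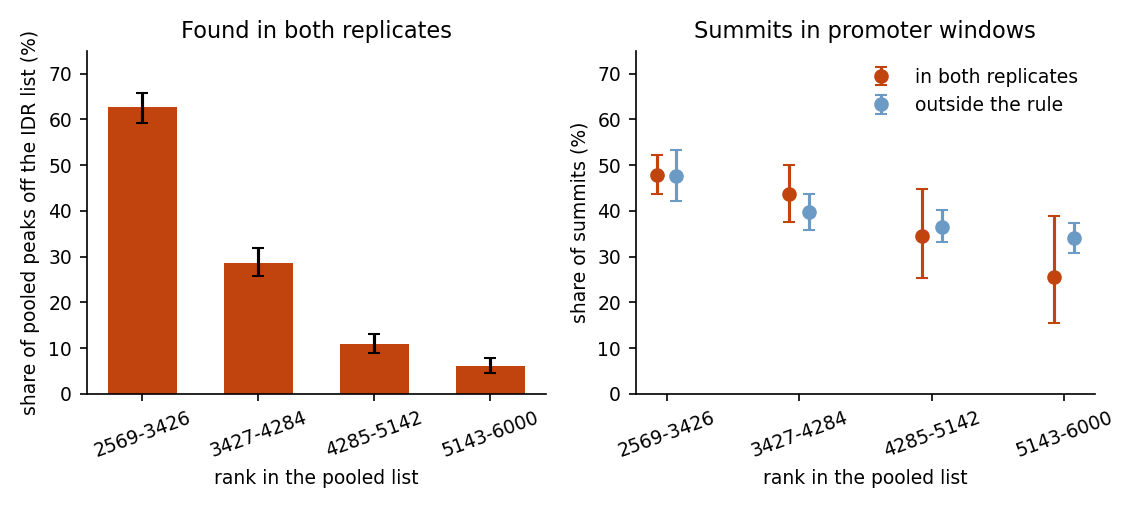
Left, share of pooled peaks overlapping no IDR peak that met the rule (y axis, %) in 4 equal parts of the rank range (x axis). Right, share of summits in promoter windows (y axis, %) for weaker peaks and for those outside the rule, where the intervals overlap in every part; bars and error bars give shares with 95% Wilson intervals.

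Promoter summits of weaker peaks lay upstream of the gene in 356 of 396 cases (89.9%, 86.5 to 92.5), at a median of 220 bp from the 5' end. The share upstream was 92.1% (90.8 to 93.3) in IDR peaks, 82.4% (79.8 to 84.7) in missed peaks and 75.2% (74.1 to 76.2) past rank 6000. The window itself reaches farther upstream, 1000 bp against 300 bp downstream. Within the 4 parts of the rank range, weaker and missed peaks had 87.9% (83.3 to 91.4) and 91.9% (86.4 to 95.3), then 93.3% and 83.8%, then 93.5% and 78.8%, then 92.3% and 79.5%. The missed share was thus the higher in the first part and the weaker share in the others. Among the 20 highest weaker peaks, 10 lay in promoter windows. They included peaks 40 bp upstream of ets-6, an ETS-domain transcription factor gene, 505 bp upstream of mut-16, which encodes a protein of the Mutator foci that amplify small RNAs, 132 bp upstream of sir-2.2, a mitochondrial sirtuin gene, and 22 bp downstream of the start of ret-1, the reticulon gene. The peak nearest to nova-1, a neuronal splicing regulator gene, lay 6 bp downstream of its 5' end. The others of that group were upstream of Y39C12A.9, sinh-1, aqp-2 and E01A2.1 and 74 bp downstream of the start of Y44E3A.1.

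Each promoter peak mostly belonged to 1 gene. Of the 396, 85 (21.5%, 17.7 to 25.8) were shared by several genes, against 40.6% (38.4 to 42.9) of promoter IDR peaks and 14.7% (12.6 to 17.1) of missed ones. In all, 460 of 19985 protein-coding genes (2.30%) had a weaker summit in their window, and 2519 (12.6%) had an IDR summit. Only 33 of the 460 (7.17%, 5.15 to 9.90) had both, while 1032 genes with a missed summit included 79 (7.66%, 6.19 to 9.44) with an IDR summit. The rule left out peaks that overlapped an IDR peak, which lowers the number of genes with both. There were 25 genes with 2 weaker summits and 0 with 3 or more.

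The host genes of intron peaks had a higher median length than all protein-coding genes. Any intron position falls more often in a long gene, and no background of intron positions was drawn. The 252 intron summits fell in 210 host genes of median length 9618 bp, against 2026 bp for all protein-coding genes, and the hosts of IDR and missed intron peaks had similar medians of 8726 and 8845 bp. The host with the most was ints-5, named for the Integrator complex of snRNA processing, with 5 weaker peaks between chrV:18536552 and 18543625, at ranks 2755, 3935, 2654, 2820 and 4614. Another 4 lay in attf-3, an AT-hook factor gene, at ranks 4049, 3006, 2633 and 3218. The genes fkh-7, a forkhead factor gene, frl-1, gbas-1, gcn-1, jip-1 and xpd-1 had 3 each. In ints-5, gbas-1 and jip-1 these counts include a pair of peaks that overlapped each other, so they exceed the number of separate regions. These 8 hosts were picked for their counts, after the values were seen. All 9 summits in ints-5 and attf-3 fell in soft-masked sequence, which holds repeats and low-complexity runs where reads are harder to place, and its part in these peaks was not tested.

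Of the 227 summits in neither promoter, exon nor intron, 58 (25.6%, 20.3 to 31.6) lay within 500 bp past the 3' end of a protein-coding gene and 50 (22%, 17.1 to 27.9) within 250 bp of a noncoding gene other than a piRNA gene. Only 34 (15%, 10.9 to 20.2) were over 5000 bp from any protein-coding 5' end. The most distant weaker peak lay 36611 bp from Y73B3A.1, near the left end of the X chromosome, at chrX:10132-10511, with rank 3186 in the pooled list and 2943 and 4473 in the replicates. The next were intron peaks, 21713 bp from aakg-1 and 20221 bp from the 5' end of gcn-1. The shares past 3' ends (21.8%, 18.8 to 25.1) and far from 5' ends (15.7%, 13.1 to 18.7) in missed peaks had intervals that overlapped those of the weaker peaks.

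Short words at the summit differed in share between the weaker peaks and the missed ones. Every one of 2080 hexamers (6-base words, each joined with its reverse complement) was counted in the 101 bp windows, and the 5 named here were those with the largest ratio of the weaker to the missed share among the 501 hexamers found in at least 5% of weaker windows. They were CCGCGC (5.69% of weaker and 2.22% of missed windows), CCCGCG (5.02% and 2.17%), CGCAGA (13.9% and 7.02%), ACGCAG (14.6% and 7.39%) and CTCGCC (6.02% and 3.12%). The first pair overlap each other in 5 bases, as do CGCAGA and ACGCAG. Of consecutive 101 bp windows of the nuclear genome, 1.09% held CCGCGC, 0.741% CCCGCG, 2.32% CGCAGA, 1.91% ACGCAG and 1.88% CTCGCC. Since the 5 were selected for this ratio, their ratios are a description. All 5 are rich in G and C, and the median GC content was 42.6% in weaker windows, 38.6% in missed windows and 46.5% in IDR windows.

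The words CGCAGA and ACGCAG together marked weaker peaks almost as often as IDR peaks. Either word, on either strand, was in 159 of 897 weaker windows (17.7%, 15.4 to 20.4), 504 of 2568 IDR windows (19.6%, 18.1 to 21.2), 231 of 2437 missed windows (9.48%, 8.38 to 10.7) and 871 of 23768 windows past rank 6000 (3.66%, 3.43 to 3.91). The same windows of the nuclear genome held either word in 3.31% of cases, and windows of that length centred 220 bp upstream of every gene in 4.26%. The joined 7 bases ACGCAGA were in 10.8% (8.95 to 13) of weaker, 10.8% (9.64 to 12) of IDR and 4.88% (4.10 to 5.81) of missed windows. The windows shown above for fbxa-220, pat-4 and srh-2 hold all 7 bases, and that for ceh-93 holds ACGCAG alone.

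**Figure D4:**
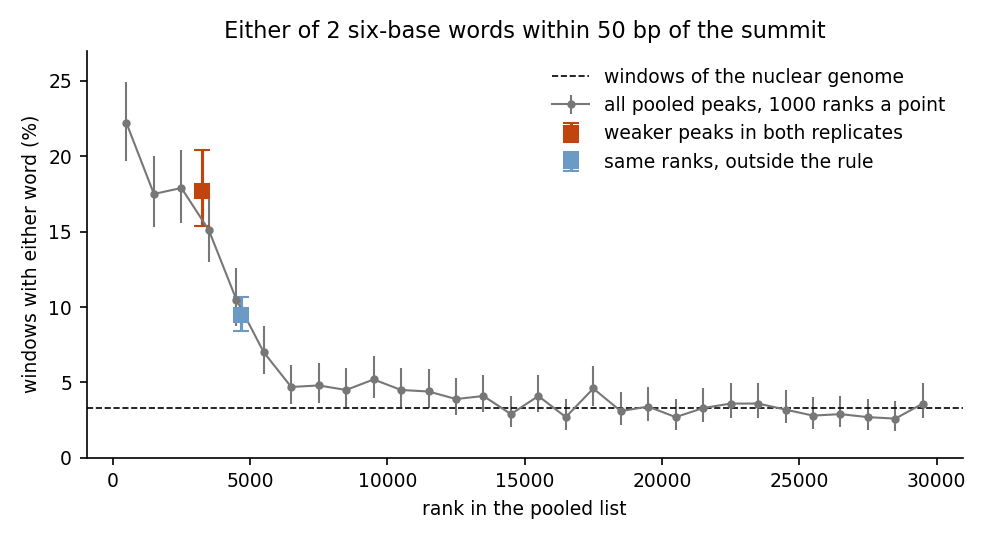
Share of 101 bp summit windows with either of the words ACGCAG and CGCAGA (y axis, %) against rank in the pooled list (x axis). Grey points take 1000 ranks each, squares stand at the median rank of the weaker (3250) and missed (4656) peaks, error bars are 95% Wilson intervals, the dashed line is the share of genome windows (3.31%), and both squares lie close to the grey series.

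The share with either word also moved with rank. Over all pooled peaks the share with either word went from 22.2% (19.7 to 24.9) in the first 1000 ranks to 15.1% in ranks 3001 to 4000, 70 of 1000 (5.58 to 8.75%) in ranks 5001 to 6000 and 4.70% in the next 1000. Within the 4 parts of the rank range, weaker and missed windows held either word in 18.7% (15.6 to 22.3) and 15.5% (11.9 to 19.9), then 16.8% (12.6 to 22.1) and 11.1% (8.86 to 13.9), then 18 of 90 (13 to 29.4%) and 8.17% (6.41 to 10.4), then 7.84% (3.09 to 18.5) and 7.11% (5.51 to 9.12). The weaker share was the higher in each part, and the intervals were separate only in the third. The words were picked for a high ratio of weaker to missed share over these same windows, so the choice itself favours a higher weaker share.

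Within classes of base composition the weaker share was the higher in each, but the intervals were separate in 1 of 4. Among windows of 40 to 50% GC, 22.2% (18.2 to 26.8) of weaker, 12.8% (10.6 to 15.3) of missed and 21% (18.8 to 23.4) of IDR windows held either word. At 50% GC and above the weaker and missed shares were 27.2% (21.2 to 34.1) and 22.5% (18.2 to 27.6). At 30 to 40% they were 10.5% (7.38 to 14.8) and 6.61% (5.10 to 8.52), and below 30% they were 3.16% (1.08 to 8.88) and 1.66% (0.878 to 3.13). Among intron summits the shares were 13.1% (9.48 to 17.8), 4.55% (3.26 to 6.32) and 14.4% (11 to 18.8). Among promoter summits they were 19.7% (16.1 to 23.9), 12.6% (10.6 to 14.8) and 20.4% (18.6 to 22.3). These comparisons did not hold rank equal, and they use the windows over which the words were picked for a higher weaker than missed share. Position was counted for the joined 7 bases ACGCAGA only, in the 380 bp around the summit. Of their 186 copies at weaker peaks, 55.4% (48.2 to 62.3) lay within 50 bp of the summit. The share was 56.0% (51.7 to 60.2) in IDR peaks and 42% (36.6 to 47.5) in missed peaks. The words joined in the 7 bases were picked for their weaker and missed shares inside those same 50 bp. This raises the central share of weaker peaks over missed peaks by the choice itself. A match of these letters describes the window and is not a measured binding site.

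In promoter windows, 46 of the 396 weaker peaks (11.6%, 8.82 to 15.1) held the 7 bases near their summit. They included the peaks upstream of ets-6 and of pat-4, the integrin-linked kinase gene of muscle attachments, and the peak at nhr-228, a nuclear hormone receptor gene. The srh-2 peak, in the window of a chemoreceptor gene, also lay in the window of icl-1, whose product belongs to the glyoxylate cycle and whose 5' end was the nearest.

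The list of ASE pathway genes did not stand apart from all genes in its share with a weaker summit. Of 26 listed ASE genes, 2 had a weaker summit (7.69%, 2.14 to 24.1), an interval that includes the 2.30% of all genes. The lists were chosen with earlier results of these data known. The peak of lin-49, which encodes a bromodomain protein needed for ASE asymmetry, lay 423 bp upstream (chrIV:8620070-8620449) with pooled rank 2987 and a signal of 29.3, and ranked 5720 in replicate 1 and 2226 in replicate 2. The other lay 781 bp upstream of lsy-2 itself, with pooled rank 3146 and replicate ranks 1791 and 3623, beside an IDR peak of rank 42 in the same window. At die-1, the zinc finger gene of the left ASE neuron, the best peak had rank 5232 and missed the rule because it ranked 3391 in replicate 2 and 14915 in replicate 1. The windows of cog-1 (best rank 14198), lim-6 (12285), lsy-22 (21970) and ceh-36 (29175) held only lower peaks. The windows of che-1, the terminal selector gene of ASE identity, and of fozi-1, hlh-14, lsy-27, nsy-1, nsy-7, tbx-37, tbx-38 and all the listed gcy receptor guanylate cyclase genes held 0 pooled peaks. The genes lsy-12 (best rank 866) and unc-37 (1996) had IDR peaks and 0 weaker ones. The nearest weaker peak to lsy-6 lay 69932 bp away.

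The tagged gene's own neighbourhood was dense in peaks, with 5 weaker and 8 IDR summits within 20000 bp of lsy-2. The 5 weaker peaks had pooled ranks 2649, 3146, 3429, 4596 and 4746, and the first and the last overlapped each other and matched the same replicate peaks. The transgene wgIs367 carries lsy-2 sequence, and its part in these signals was not tested. Around unc-119, the gene mutated in the strain, 0 weaker and 4 IDR summits lay within 20000 bp, with the nearest weaker summit 27808 bp away and an IDR summit within the gene.

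Pan-neuronal genes had the highest share with a weaker summit of the 20 lists, 5 of 28 (17.9%, 7.88 to 35.6). They were elks-1, an active zone protein gene (315 bp upstream, rank 2699, replicate ranks 4876 and 1812), unc-33, a gene of axon outgrowth (964 bp upstream, rank 3753, replicate ranks 3830 and 3746), and rgef-1, a Ras guanine nucleotide exchange factor gene often used to mark neurons (323 bp upstream, rank 3949, replicate ranks 3716 and 5596), with a second, overlapping peak. The other pair were ida-1, a dense core vesicle gene (32 bp upstream, rank 4022), and tbb-2 (963 bp upstream, rank 4170), a beta-tubulin gene whose use is not limited to neurons. An equal 5 of 28 had an IDR summit, and none of the 5 with a weaker one did. Of all 460 genes with a weaker summit, only 33 (7.17%) had an IDR summit, so this lack is not particular to the list. With 20 lists compared and 28 genes in this one, the interval is wide, and no test was made.

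**Figure D5:**
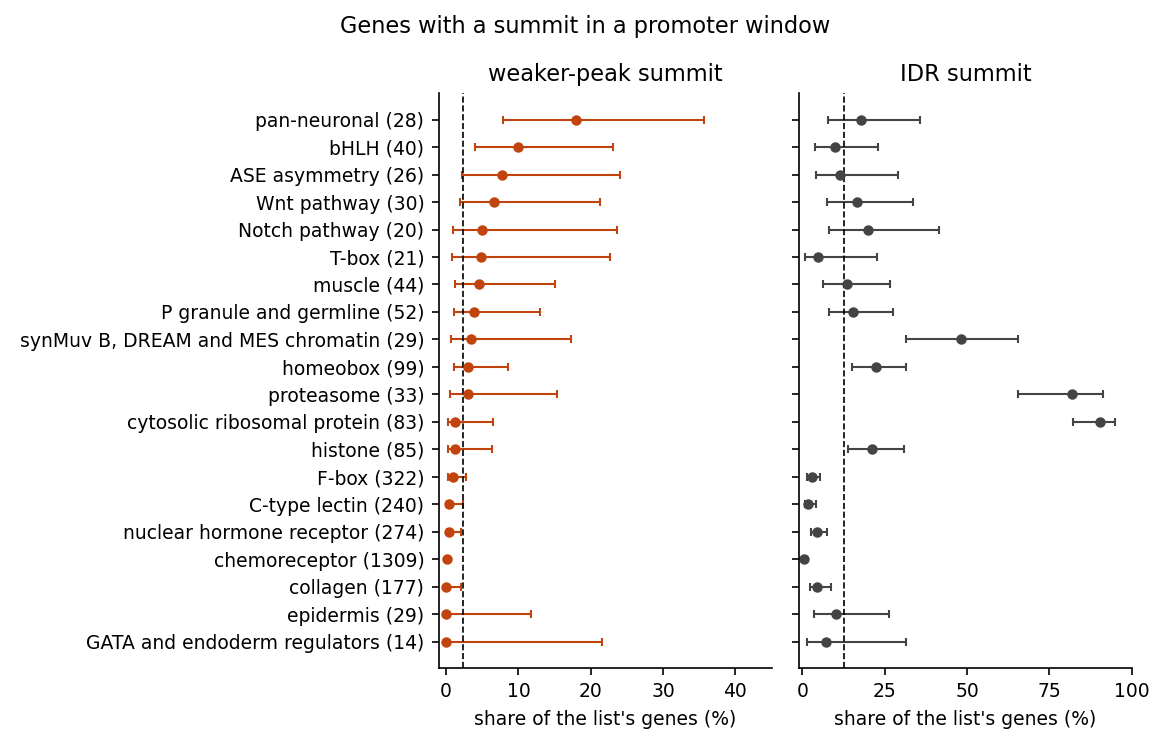
Share of each gene list (x axes, %) with a weaker summit (left) or an IDR summit (right) in a promoter window, with 95% Wilson intervals, the number of genes in brackets and the share of all protein-coding genes as a dashed line (2.30% and 12.6%). Ribosomal protein and proteasome genes stand far to the right for IDR summits only.

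Among regulatory gene lists, the counts stand beside the 2.30% of all genes with a weaker summit and the 12.6% with an IDR summit. Among 40 bHLH genes, 4 (interval 3.96 to 23.1%) had a weaker summit: hlh-30, the TFEB-like regulator of lysosome and autophagy genes (927 bp upstream, rank 2621, replicate ranks 2951 and 2049), hlh-16 (192 bp upstream, rank 3632), lin-32, the atonal-like proneural gene (80 bp upstream, rank 3992, replicate ranks 3643 and 4905), and hlh-32 (42 bp upstream, rank 4140). The hlh-16 peak also lay in the window of trt-1. None of the 4 had an IDR summit, against 33 (7.17%) of all 460 genes with a weaker summit. Among 99 homeobox genes, 3 (3.03%, 1.04 to 8.53) had one, namely ceh-93 (151 bp upstream, rank 2640, replicate ranks 2800 and 4882), the Iroquois gene irx-1 (290 bp upstream, rank 3277) and the NK-2 class gene ceh-24 (86 bp downstream, rank 3852), while 22 (22.2%, 15.2 to 31.4) had an IDR summit. The T-box gene mab-9, which acts in the hindgut, had a weaker summit 92 bp upstream (rank 2688), 1 of 21 genes of its list (4.76%, 0.846 to 22.7). Of 274 nuclear hormone receptor genes 1 (0.365%, 0.0645 to 2.04), nhr-228, had one (rank 3614), an interval below the share of all genes. The bHLH interval lay above that share, and the homeobox and T-box intervals included it.

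Signalling genes with a weaker summit were wrm-1, a beta-catenin gene (781 bp upstream, rank 2927, replicate ranks 2239 and 5070), and cam-1, the Ror receptor kinase gene (68 bp upstream, rank 3422, with a second at rank 4445), which made 2 of 30 Wnt pathway genes (6.67%, 1.85 to 21.3). The Notch list of 20 had lag-1, the gene of the DNA-binding CSL factor (121 bp upstream, rank 3743), or 5% (0.888 to 23.6). Of 44 muscle genes, pat-4 (329 bp upstream, rank 3117, replicate ranks 2579 and 3356) and the dystrophin gene dys-1 (324 bp upstream, rank 3482) had one (4.55%, 1.26 to 15.1). The 52 genes of P granules and the germline included car-1 (rank 2938), in a window shared with coa-5, and mex-3 (rank 4478), both genes of RNA-binding proteins (3.85%, 1.06 to 13). The Wnt, Notch, muscle and P granule intervals included the 2.30% of all genes. The epidermis list (0 of 29, up to 11.7%) and the list of GATA and endoderm regulators (0 of 14, up to 21.5%) had none, with intervals that include the share of all genes.

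The lists with the highest IDR shares, of housekeeping genes, had 1 weaker summit each. Among 83 cytosolic ribosomal protein genes, 75 (90.4%) had an IDR summit and 1 a weaker summit (1.20%, 0.213 to 6.51), rpl-11.1, at rank 3269. Among 33 proteasome genes the numbers were 27 (81.8%) and 1 (3.03%, 0.537 to 15.3), rpn-1, at rank 4086. Genes that already had an IDR peak could gain a weaker one only outside it. Of the 14 genes in these lists without an IDR summit, 2 had a weaker summit. Of all 19985 genes, 2519 had an IDR summit and 427 had a weaker summit and no IDR summit. The difference was not tested. Both weaker summits lay in windows shared with another gene, T22F3.2 for rpl-11.1 and ribo-1 for rpn-1. The list of synMuv B, DREAM and MES chromatin genes had 14 of 29 with an IDR summit and 1 with a weaker one, lin-15B (978 bp upstream, rank 3839). Of 85 histone genes 1 had a weaker summit, his-42, with a pair of overlapping peaks (ranks 3166 and 3924).

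In 4 large gene families the share with an IDR summit was below the 12.6% of all genes, with 0.535% (0.259 to 1.10) of chemoreceptor, 1.67% (0.650 to 4.21) of C-type lectin, 4.52% (2.31 to 8.66) of collagen and 2.80% (1.48 to 5.23) of F-box genes. The weaker share was below the 2.30% of all genes, outside its interval, in chemoreceptor and collagen genes only. Chemoreceptor genes had a weaker summit in 1 of 1309 cases (0.0764%, 0.0135 to 0.431), srh-2. C-type lectin genes had 1 of 240 (0.417%, 0.0736 to 2.32), clec-115, in a window shared with C49A1.10. Collagen genes had 0 of 177 (up to 2.12%). F-box genes had 3 of 322 (0.932%, 0.317 to 2.70), of which fbxa-141 (739 bp upstream, rank 2864) and fbxa-10 (10 bp upstream, rank 2908) ranked highest.

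Noncoding genes near weaker peaks included tRNA genes. Of 897 weaker peaks, 31 (3.46%, 2.45 to 4.86) had a summit within 250 bp of a nuclear tRNA gene, against 2.67% (2.11 to 3.37) of nuclear IDR peaks, 2.46% (1.92 to 3.16) of missed peaks and 0.505% (0.422 to 0.603) of peaks past rank 6000. Counted by gene, 35 of 612 tRNA genes (5.72%, 4.14 to 7.85) lay that close to a weaker summit and 73 (11.9%, 9.59 to 14.7) to an IDR summit. Of the 31 peaks, 13 (41.9%) were on the X chromosome, which carries 276 of the 612 genes (45.1%). Small nucleolar RNA genes, which guide chemical modification of ribosomal RNA, had 9 of 346 (2.60%, 1.37 to 4.87) near a weaker summit and 59 (17.1%, 13.5 to 21.4) near an IDR summit. MicroRNA genes had 8 of 261 (3.07%, 1.56 to 5.93) and 9 (3.45%, 1.82 to 6.42). Near a missed summit lay 10.8% of tRNA, 5.49% of small nucleolar RNA and 3.83% of microRNA genes. Among other types the weaker share was 2.33% of snRNA, 2.58% of lincRNA and 2.10% of ncRNA genes, all within the small nucleolar RNA and microRNA intervals. It was lower in antisense RNA genes (1.00%), pseudogenes (0.329%) and piRNA genes (0.163%).

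Over the chromosomes the weaker peaks were densest on III, with 14.1 per Mb, and on I, with 11.4, and sparsest on V, with 5.07. The X chromosome had 6.89 per Mb and 122 of the 897 (13.6%, 11.5 to 16.0), against 10.5% (9.38 to 11.8) of nuclear IDR peaks and 12.4% (11.1 to 13.8) of missed peaks. IDR peaks were also densest on III (41.8 per Mb), and lay least densely on X (15.1) and V (15.3). The mitochondrial genome had 18 IDR peaks and 0 weaker peaks. With each autosome divided into 3 equal lengths, the middle one held 32.6% (29.4 to 36) of autosomal weaker peaks and 39.3% (37.3 to 41.3) of IDR peaks. It held 31.7% (29.7 to 33.7) of missed peaks and 29.6% (29.0 to 30.1) of all pooled peaks. The weaker share was thus near that of an even spread and of the missed peaks.

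A summit within 1000 bp of an IDR summit was found for 47 weaker peaks (5.24%, 3.96 to 6.90), against 5.25% (4.43 to 6.21) of missed peaks and 3.77% (3.54 to 4.02) of peaks past rank 6000. The median distance of weaker peaks from an IDR summit was 8399 bp. Soft-masked sequence held 33.6% (30.5 to 36.7) of weaker summits, 22% (20.4 to 23.6) of IDR summits, 38% (36.1 to 39.9) of missed summits and 48.1% (47.5 to 48.8) of those past rank 6000, so that this share moved along with rank and promoter share. Its part in the differences was not tested. Without soft-masked summits 20.5% (17.4 to 23.9) of weaker and 11.5% (174 of 1511) of missed windows held either word, though the words had been picked with these windows included.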

How the data were processed

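On each of 2 builds (ce11 and ce10) 4 peak lists were deposited: 1 per replicate, 1 pooled and 1 that passed the authors' IDR threshold. Per the deposited metadata the replicate and pooled lists, of 30000 regions each, hold peaks and background made as input for IDR, and drew on a further file that is not described there. The programs for alignment and peak calling, their versions and the threshold of the IDR step are nowhere stated in the labels or metadata used. The authors' signal value per peak is on a scale of its own list and was used within that list alone, and the deposited −log10 q-value was only described. The depth is unknown, because read totals were not used here. The controls named as possible in the labels were not used here.

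Peaks were ranked by signal in each list, and overlaps, summit classes, nearest 5' ends and hexamers were computed on ce11 with WBcel235 (Ensembl annotation release 115) in Python 3.11.15, numpy 2.4.6, pandas 2.3.3 and scipy 1.17.1, with figures by matplotlib 3.10.9. Promoter windows took precedence over exons, exons over introns, and other summits were called elsewhere. The sequences came from the same assembly, from RefSeq, and none was printed from chromosome I or from a window overlapping an exon. Soft-masked means lower case in that file. The code was tested on simulated peaks. With 1 group and a rule on signal no test was made, and shares carry 95% Wilson intervals. The members and the 20 gene lists (2955 genes matched, 2 symbols not found) were chosen with earlier results of these data known. Named genes were those nearest to the 20 highest weaker peaks, to the 3 peaks on each side of the rank limit and to the 3 most distant peaks, all ASE genes, up to 4 genes a list with a weaker summit (up to 2 where the list's share was below that of all genes), lsy-2 and unc-119. Hosts of 3 or more intron peaks, tbb-2, icl-1 and the other genes in a named window, the joined 7 bases and the choice of windows printed were added once values had been seen. The alternatives tried were other rank limits, overlaps, promoter windows and distances, peaks left out, and the ce10 lists.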

Additional observations from a re-analysis of the deposited data

How the results depend on the processing

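Of 105 alternative values, 77 stayed within the interval of the value reported, or for counts within 1.5 times of it, and 28 moved further. The 77 include the values without mitochondrial peaks, which could not move because no weaker peak was mitochondrial. They also include the values at peak midpoints, which could hardly move because each weaker summit lay in the centre of its peak. The count of 77 is therefore not a measure of robustness. No paired analysis was possible because there was 1 group. With the overlap asked of 1 replicate only, the number of weaker peaks was 1849 to 1862 and the number of genes 852 to 905, since fewer conditions were set, the promoter share was 40.4 to 43.3%, the exon share 3.52 to 4.14% and the median GC content 40.6 to 41.6%. With the top 4500 peaks of each replicate there were 460 weaker peaks at 254 genes, 1.30% in exons and 6.96% near an IDR summit. Without soft-masked summits 596 remained, with 47.8% in promoter windows, 24.2% in introns, 16.8% on X, 3.52% near an IDR summit and a median GC content of 45.5%. Missed peaks then had between 37.6 and 42.5% (95% interval) in promoter windows. A promoter window from 500 bp upstream to 100 bp downstream gave 31.8% in promoter windows, 31.9% in introns and 33.3% elsewhere, and one from 2000 to 500 bp gave 58.4%, 23.5% and 16.5%, with 1.56% in exons. The share near an IDR summit was 0.111% within 500 bp, 15.9% within 2000 bp and 0.00% once those peaks were left out, by construction. GC content was 39.8% with 100 bp to each side. Merging overlapping weaker peaks, chosen after seeing the data, gave 857 peaks with 44.7% in promoter windows, and the ce10 lists gave 898 peaks. The word shares were not recomputed under these alternatives except without soft-masked summits.

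With no input or untagged control analysed and 1 group of 2 replicates, LSY-2 binding cannot be told apart from regions recovered in any immunoprecipitation, and the depth that sets the weakest detectable peak is unknown.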
